A study of Homo sapiens with 7 samples.

Results

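Gene expression in cells with a knockout of HDAC6 (KO) was compared with that in unedited cells (WT) across every gene with enough reads to be tested. The comparison used 4 of the 7 RNA sequencing libraries of the series, KO replicates 1 and 2 and WT replicates 1 and 2, as the sample titles name them. The labels give the cells as RPMI 8226, an established human myeloma line. Myeloma is a malignancy of plasma cells, which secrete antibody. The other 3 libraries, labelled RY, were from cells said to carry a change of 2 residues in the zinc finger of HDAC6 that binds ubiquitin, and they served here as a reference for foreign RNA, not as a group of the comparison. WT carried no edit, and CRISPR-Cas9 was used to make KO and RY. The guide, the edited exon and whether KO was grown from a single clone are not given in the sources used here. An effect of the knockout and a difference between cell lines therefore cannot be told apart. All cells grew in the same serum-supplemented medium without a drug, and RNA was made into stranded libraries from total RNA. Nothing in the labels says that replicates were separate cultures, so p-values measure the spread between libraries, which may be technical.

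HDAC6 is a deacetylase that works mainly in the cytoplasm, where it removes acetyl groups from alpha-tubulin, cortactin, HSP90 and peroxiredoxins. Its zinc finger binds the free end of ubiquitin chains and so couples ubiquitinated protein to dynein, the motor that carries it to the aggresome for autophagy. Plasma cells make large amounts of immunoglobulin and depend on proteasome and aggresome disposal, which is why the protein has been studied as a drug target in myeloma.

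The WT libraries held 38662718 and 42813888 counted reads and the KO libraries 36670541 and 34768942. Values are in CPM, which are counts relative to library size, with sizes scaled by the trimmed mean of M-values (TMM, factors of 0.984 to 1.02). HDAC6 itself (ENSG00000094631, chromosome X, 48801377 to 48824982 on GRCh38) stood at 54.1 and 73.9 CPM in WT and 18.1 and 12.2 CPM in KO, with no overlap between the groups. Its log2 fold change was -2.08 (SE 0.25, adjusted p = 0.00763 by the quasi-likelihood test of edgeR), and RNA counts do not show whether the remaining transcripts encode protein. All 4 libraries expressed the plasma cell surface genes SDC1 (232 and 151 CPM in WT and 234 and 224 CPM in KO) and TNFRSF17 (39.1 and 46 CPM in WT and 41.4 and 44.2 CPM in KO). The transcription factor gene MAF, driven by a translocation in this line, stood at 1087 and 1338 CPM in WT and 1502 and 1364 CPM in KO. The libraries labelled RY carried almost none of these, with a mean of 0.0327 CPM for SDC1, 0.0813 CPM for MAF and 0 for TNFRSF17, and so went against their label as plasma cells.

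RNA of the kind found in the libraries labelled RY was present at a low level throughout the WT libraries and almost absent from KO. The measure used genes that stood at 100 CPM or more in every RY library, of which there were 2099, and expressed each as a percentage of its RY mean. In WT replicate 1 the lowest of the 2099 genes stood at 1.73% and the 1st percentile at 3.68%. In WT replicate 2 these values were 3.63% and 6.96%. The distributions of both WT libraries thus ended at a floor, and 0 genes lay under 1% in either. In KO, 54 genes lay under 1% in replicate 1 and 54 in replicate 2, with 1st percentiles of 0.046% and 0.243%. The floor was seen without reference to KO and was higher in WT replicate 2. Lowering the minimum to 20 CPM, which left 7301 genes, gave 1st percentiles of 3.26% and 6.28% for WT. At that minimum 4 genes lay under 1% in WT replicate 1, the lowest at 0.511%, and 0 in WT replicate 2, against 201 and 200 in the KO libraries.

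**Figure D1:**
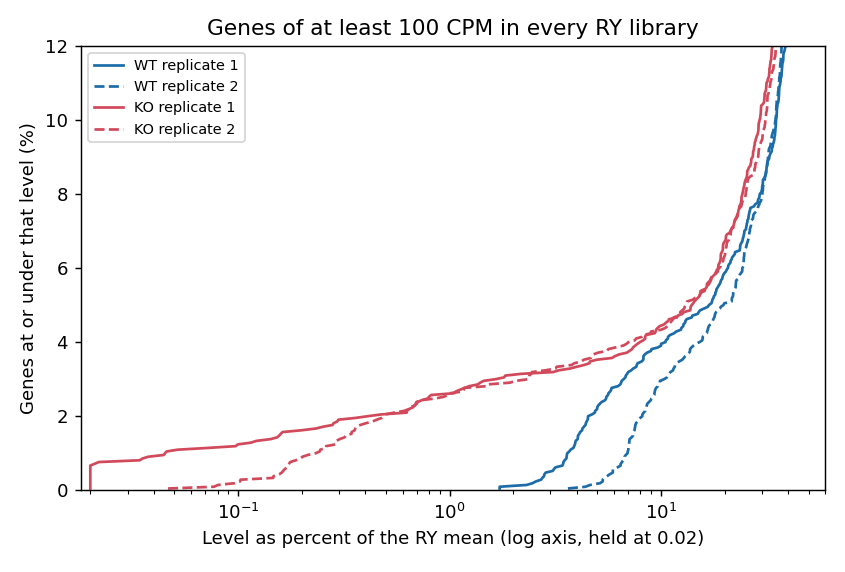
Cumulative share of the 2099 genes of at least 100 CPM in every RY library (vertical axis, %) at or under a given level in each WT and KO library (horizontal axis, % of the RY mean, log axis, values under 0.02 drawn at 0.02). The WT curves begin at 1.73% and 3.63%, while 54 genes in each KO library lie under 1%.

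A second estimate took the 210 genes that averaged 20 CPM or more in RY and stood under 1% of that in KO. Their median in WT replicate 1 was 4.04% of the RY level and in WT replicate 2 it was 7.09%. The KO medians of 0.111% and 0.291% were fixed by the choice of genes and are no test of KO. The median of the WT mean, 5.55%, is called the RY share here. It and the shares of single genes rest on CPM scaled over all 7 libraries, so they differ slightly from ratios of the printed WT values. A gene is called covered where the RY share of its RY level would by itself account for at least 50% of its WT level, because a fall of such a gene in KO cannot be told apart from the loss of that RNA. Of the genes tested, 622 (3.82%) were covered. How RY-type RNA came to be counted in the WT libraries was not tested.

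Of 16288 genes tested, 1432 (8.79%) were called, that is, passed an adjusted p under 0.05 with a change of at least 2-fold. KO was lower for 982 of them (6.03% of genes tested) and higher for 450 (2.76%). The median log2 fold change over all genes was 0.00. All 1432 called genes were without overlap between the groups, so a lack of overlap in a called gene is no further support. Among all genes tested, 25.3% were lower and 24.2% higher in KO without overlap. Of the 982 lower genes, 319 (32.5%) were covered by the RY share, against 35 (7.78%) of the 450 higher genes. The covered lower genes had a median of 1.84 CPM in WT, 0.0836 CPM in KO and 34.4 CPM in the libraries labelled RY. They were higher in WT replicate 2 than in replicate 1 in 306 of 319 cases, with a median log2 ratio of 0.58. For the 663 lower genes that were not covered, that ratio was 0.13 and the medians were 5.57 CPM in WT and 0.631 CPM in KO. Falls of at least 10-fold numbered 534, of which 245 were covered, and rises of at least 10-fold numbered 114. Among genes not covered, 663 (4.23%) were lower and 415 (2.65%) higher. The authors' deposited table of this comparison lists 2336 genes. The calls made here include 1428 of them, which is 61.1% of that table and 99.7% of the calls, all with the same sign.

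Genes were read in 48 lists by function. In 37 lists at least 1 member was called and in 11 none was. The plot of calls by list shows where the members went, with the calls among all genes tested drawn beside them.

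**Figure D2:**
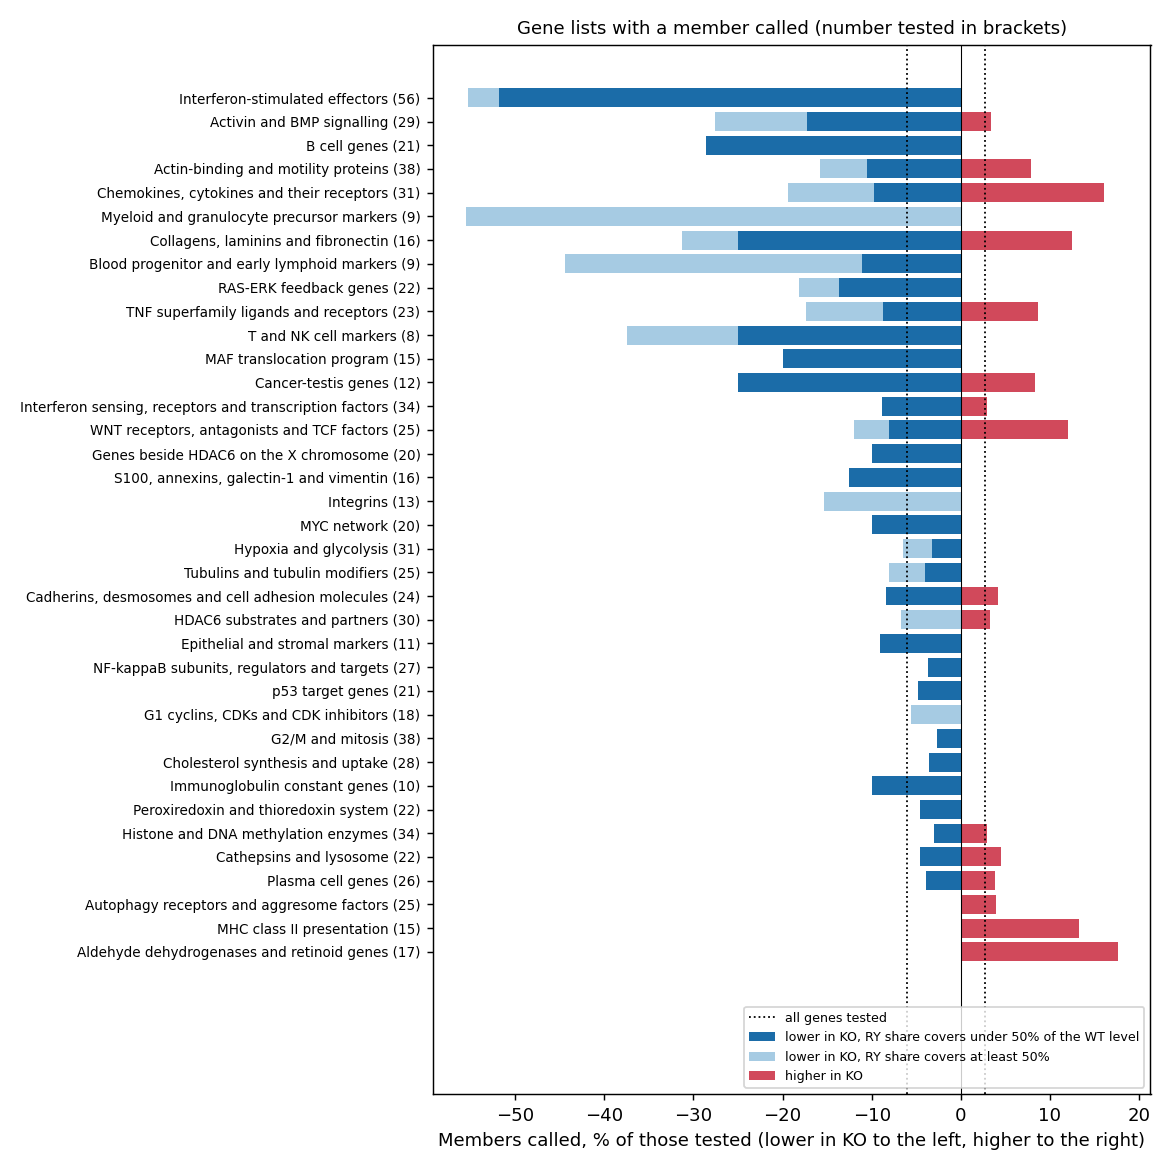
Members of each list called lower (bars to the left) or higher (bars to the right) in KO, as a percentage of the members tested, whose number is in brackets. Pale blue marks members covered by the RY share, and dotted lines mark the 6.03% and 2.76% called among all genes tested. The interferon-stimulated effectors have 31 of 56 members to the left and the 5 called myeloid markers are all pale.

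Interferon-stimulated genes were the list with the most members lower in KO. Type I interferons act through their receptor and JAK kinases on transcription factors, STAT2 and IRF9 among them, that bind a shared element in the promoters of many antiviral genes. Promoters of the 4 lowest genes by adjusted p that hold a simplified form of that element are shown so that its copies and spacing can be read. They are from RefSeq on GRCh38.p14, 250 bases before to 50 after the gene's start, given 5′ to 3′ on the gene's strand, with matches to GAAANNGAAA on either strand in capitals. IFI6 lies at chr1:27672143-27672442 on the minus strand, IFI44L at chr1:78620198-78620497, IFI44 at chr1:78649539-78649838 and IFI27 at chr14:94110486-94110785, these on the plus strand.
IFI6: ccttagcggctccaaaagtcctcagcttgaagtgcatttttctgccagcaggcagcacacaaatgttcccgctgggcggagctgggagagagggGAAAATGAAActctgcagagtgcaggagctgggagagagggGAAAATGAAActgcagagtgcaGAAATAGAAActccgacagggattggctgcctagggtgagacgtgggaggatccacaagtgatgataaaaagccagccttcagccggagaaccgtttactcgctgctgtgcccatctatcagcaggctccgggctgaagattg
IFI44L: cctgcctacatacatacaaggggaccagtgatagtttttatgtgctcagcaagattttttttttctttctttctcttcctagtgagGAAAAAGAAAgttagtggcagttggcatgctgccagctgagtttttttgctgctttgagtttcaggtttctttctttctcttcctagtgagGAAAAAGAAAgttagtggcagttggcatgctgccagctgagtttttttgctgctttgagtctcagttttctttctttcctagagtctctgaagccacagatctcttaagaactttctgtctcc
IFI44: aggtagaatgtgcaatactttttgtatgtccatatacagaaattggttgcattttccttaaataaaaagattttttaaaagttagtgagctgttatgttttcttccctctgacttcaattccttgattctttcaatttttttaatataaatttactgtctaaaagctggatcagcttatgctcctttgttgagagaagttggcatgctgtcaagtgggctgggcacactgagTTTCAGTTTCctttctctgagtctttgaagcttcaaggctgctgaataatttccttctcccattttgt
IFI27: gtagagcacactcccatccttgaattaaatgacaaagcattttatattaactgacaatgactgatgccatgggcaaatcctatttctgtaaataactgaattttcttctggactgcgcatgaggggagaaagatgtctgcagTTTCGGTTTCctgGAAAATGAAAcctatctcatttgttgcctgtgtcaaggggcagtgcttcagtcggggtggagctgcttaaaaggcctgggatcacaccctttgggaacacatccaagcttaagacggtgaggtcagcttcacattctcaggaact
The IFI6 window holds 3 matches, those of IFI44L and IFI27 hold 2 each and that of IFI44 holds 1, on the opposite strand. Of 27305 promoters, 996 (3.65%) hold a match. Among the 56 interferon-stimulated genes tested, 44 have an entry and 29 of these (65.9%) hold one, 17 of the 24 that were lower in KO and 12 of the 20 that were not called. A match describes the letters and not the binding of a factor.

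Of the 56 interferon-stimulated effectors, 31 were lower in KO, against 6.03% of all genes tested, and 0 higher, and the median log2 fold change was -1.26. The KO libraries lay below both WT libraries for 51 of the 56, against 25.3% of all genes tested. In all, 2 of the 31 were covered by the RY share, CMPK2 and IFITM2, and the median over members not covered was -1.20. IFI44L, an interferon-induced protein of unknown enzymatic function, stood at 95.2 and 96.6 CPM in WT and 2.59 and 3.95 CPM in KO (29.5-fold lower, log2 fold change -4.87, SE 0.23, adjusted p = 0.000891). Its neighbour IFI44 stood at 41.8 and 33.6 CPM in WT and 3.18 and 4.15 CPM in KO. Neither gene overlapped between groups, and both WT libraries were close to each other. IFI27, a mitochondrial and nuclear envelope protein, stood at 31.5 and 58 CPM in WT and 5.05 and 5.18 CPM in KO, and USP18, the protease that removes ISG15 from proteins and dampens receptor signalling, at 3.2 and 1.88 CPM in WT and 0.214 and 0.284 CPM in KO. Both were lower (-3.13 and -3.33 on the log2 scale, adjusted p = 0.00474 and 0.0116).

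The oligoadenylate synthetases, which sense double-stranded RNA, were all lower. OAS2 stood at 399.9 and 309.9 CPM in WT and 85.6 and 86.3 CPM in KO (log2 fold change -2.05, SE 0.16, adjusted p = 0.00269), OAS3 at 91 and 52.5 CPM in WT and 11 and 13.3 CPM in KO (log2 fold change -2.57, SE 0.29, adjusted p = 0.00654) and OAS1 at 112 and 105 CPM in WT and 45.6 and 33.5 CPM in KO (log2 fold change -1.46, SE 0.18, adjusted p = 0.00767). The related OASL stood at 19.7 and 12.6 CPM in WT and 5.27 and 4.15 CPM in KO (adjusted p = 0.0155). Of the IFIT family, which binds viral RNA ends, IFIT1, IFIT2, IFIT3 and IFIT5 were lower, and of the dynamin-like MX proteins both were. For these genes the WT libraries differed among themselves. IFIT1 stood at 87.4 and 27.3 CPM in WT and 5.13 and 8.25 CPM in KO, ISG15, a ubiquitin-like modifier, at 192 and 66.6 CPM in WT and 16.9 and 19.5 CPM in KO, and MX1 at 697 and 339.6 CPM in WT and 127 and 149.8 CPM in KO. WT replicate 1 was the higher of the pair for 41 of the 56 genes. Without WT replicate 1 the log2 fold change of IFIT1 moved from -3.10 to -2.03 (-3.72 without WT replicate 2), that of ISG15 from -2.83 to -1.87, that of MX1 from -1.91 to -1.29, that of IFIT3 from -2.58 to -1.88 and that of MX2 from -2.63 to -1.90. All stayed called, while IFIT5, at -0.97, fell short of 2-fold.

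**Figure D3:**
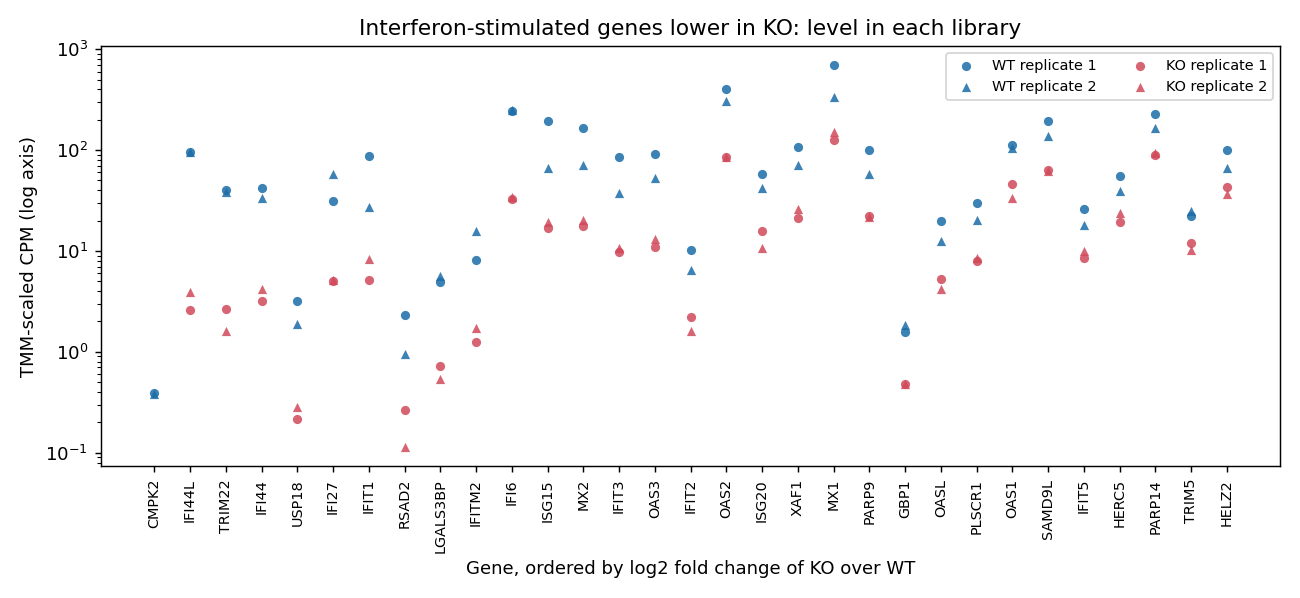
TMM-scaled CPM (vertical log axis) of the 31 interferon-stimulated genes lower in KO, with a point for each library of WT (blue) and KO (red). The KO points of CMPK2 are at 0 reads and are not drawn, and in every gene drawn the 2 blue points lie above both red points.

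Further members lower in KO were XAF1, an adaptor that promotes apoptosis (108 and 71.4 CPM in WT and 21.4 and 26.2 CPM in KO), TRIM22, a ubiquitin ligase against viruses (40.6 and 38.4 CPM in WT and 2.67 and 1.62 CPM in KO), and the ADP-ribosyltransferase-like PARP9 (99.4 and 57.8 CPM in WT and 22.3 and 21.5 CPM in KO). Each had an adjusted p of at most 0.0122. A second tier, 7 genes, were lower past the adjusted p but under 2-fold, against 0.945% of all genes tested. Among these were BST2, which tethers budding virions, at 615 and 561 CPM in WT and 292 and 297 CPM in KO (log2 fold change -1.0, SE 0.13, adjusted p = 0.00897), and the DNA sensor IFI16 at 476 and 559 CPM in WT and 348 and 312 CPM in KO (log2 fold change -0.65, SE 0.15, adjusted p = 0.0479). The ubiquitin ligase TRIM25 (242 and 229.7 CPM in WT and 187 and 180.3 CPM in KO, adjusted p = 0.14) and PML, the scaffold of nuclear bodies (135 and 114 CPM in WT and 109 and 111 CPM in KO, adjusted p = 0.538), did not pass at either level. ZBP1, a sensor of left-handed nucleic acid, stood at 4.88 and 12.9 CPM in WT and 26.9 and 13.2 CPM in KO, and did not pass (adjusted p = 0.277).

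The upstream part of the pathway was called at a share near that of all genes. Of 34 sensors, receptors and transcription factors, 3 were lower (8.82%, against 6.03% of all genes tested) and 1 higher (2.94%, against 2.76%). IRF7, the factor that amplifies interferon production, stood at 58.3 and 46.2 CPM in WT and 21.5 and 19.3 CPM in KO (log2 fold change -1.35, SE 0.17, adjusted p = 0.00777). The groups did not overlap for IRF7. TLR7, an endosomal sensor of single-stranded RNA on the X chromosome, stood at 15.6 and 26.4 CPM in WT and 2.89 and 0.683 CPM in KO and was lower (log2 fold change -3.54, SE 0.63, adjusted p = 0.0222). The KO libraries differed for TLR7, and its log2 fold change was -4.93 without KO replicate 1 and -2.86 without KO replicate 2. The receptor gene IFNAR1 stood at 99.6 and 110.4 CPM in WT and 96.2 and 93.3 CPM in KO and IFNAR2 at 22.3 and 28 CPM in WT and 28.8 and 25.9 CPM in KO. STAT2 stood at 96.6 and 161 CPM in WT and 129.7 and 75.2 CPM in KO and IRF9 at 7.16 and 7.36 CPM in WT and 4.57 and 4.78 CPM in KO. None of these passed (adjusted p from 0.131 for IRF9 to 0.786 for IFNAR2). The RNA sensor IFIH1 passed the adjusted p but not 2-fold (107 and 88.9 CPM in WT and 51.8 and 54.3 CPM in KO, log2 fold change -0.88, SE 0.14, adjusted p = 0.016). The 21 tested genes of MHC class I presentation, another interferon-responsive set, had 0 calls by edgeR or DESeq2, 6 at an unadjusted p under 0.05 and a median log2 fold change of -0.11.

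B cell genes, which plasma cells silence as they mature, had a median log2 fold change of -0.72. Of 21 tested members 6 were lower in KO (28.6%) and 0 higher, against 6.03% and 2.76% of all genes tested. None of the 6 was covered, but CD22 lay just under the limit, with an RY share of 49% and that of LYN to 41.5%. MS4A1, the gene of CD20, stood at 10.7 and 15.1 CPM in WT and 0.615 and 0.54 CPM in KO (log2 fold change -4.47, SE 0.30, adjusted p = 0.00186). FCER2, the gene of the low-affinity IgE receptor CD23, stood at 23.8 and 24.5 CPM in WT and 6.79 and 5.6 CPM in KO (log2 fold change -1.96, SE 0.17, adjusted p = 0.00325), and the activation marker CD83 at 26.9 and 27.9 CPM in WT and 12.6 and 11.5 CPM in KO (log2 fold change -1.18, SE 0.14, adjusted p = 0.00733). These 3 genes did not overlap between groups, and the WT libraries of FCER2 and CD83 lay close together. Members that did not move past the test included BLK, a kinase of the B cell receptor (89.1 and 90.7 CPM in WT and 102 and 89.7 CPM in KO), BLNK, its adaptor (60.8 and 88.9 CPM in WT and 68.7 and 52.2 CPM in KO), and BTK (33 and 44.3 CPM in WT and 66.1 and 57 CPM in KO, adjusted p = 0.0833).

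Of 26 tested plasma cell genes 1 was higher and 1 lower (3.85% each, against 2.76% and 6.03% of all genes tested). The identity factors IRF4 (319 and 567 CPM in WT and 569 and 371 CPM in KO), PRDM1 (63.3 and 88.6 CPM in WT and 61.6 and 57.6 CPM in KO) and XBP1 (412 and 561 CPM in WT and 477 and 395 CPM in KO) did not pass, with adjusted p of 0.938, 0.366 and 0.762, and the groups overlapped for IRF4 and XBP1 and nearly met for PRDM1. JCHAIN, the joining chain of polymeric IgA and IgM, stood at 4638 and 5241 CPM in WT and 2128 and 1964 CPM in KO (log2 fold change -1.27, SE 0.16, adjusted p = 0.00900). Without KO replicate 2 its adjusted p was 0.0931. The coactivator POU2AF1 stood at 215 and 314 CPM in WT and 148 and 126 CPM in KO and passed the adjusted p only (log2 fold change -0.94, SE 0.21, adjusted p = 0.0451). GPRC5D, a surface receptor used as a therapy target, was the 1 higher member, at 5.38 and 6.2 CPM in WT and 16.2 and 18.8 CPM in KO (log2 fold change 1.59, SE 0.18, adjusted p = 0.00671).

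The immunoglobulin constant genes gave 1 call in 10 tested, against 8.79% of all genes tested. IGLC2, the lambda light chain gene of this line, stood at 7099 and 8723 CPM in WT and 8935 and 8091 CPM in KO (adjusted p = 0.848). IGHA1, an alpha heavy chain gene, stood at 18.5 and 48.6 CPM in WT and 3.69 and 1.02 CPM in KO and was lower (log2 fold change -3.82, SE 0.70, adjusted p = 0.0247), its 2 WT libraries differing by more than 2-fold. Its log2 fold change was -2.97 without WT replicate 2 and -5.02 without KO replicate 1. IGHA2 stood at 6.14 and 28.5 CPM in WT and 6.44 and 2.05 CPM in KO and did not pass (adjusted p = 0.228). The constant genes of a class are near-identical, so reads may be split between them in a way that the counts do not show.

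Of the 15 tested genes of the MAF program, 3 were lower (20%) and 0 higher, against 6.03% and 2.76% of all genes tested. MAF itself did not pass (adjusted p = 0.511). Its targets ITGB7, the beta 7 integrin (5791 and 7089.5 CPM in WT and 6458 and 5910.4 CPM in KO), and CCND2, cyclin D2 (234 and 246 CPM in WT and 220.1 and 224 CPM in KO), did not pass either (adjusted p = 0.922 and 0.708). DEPTOR, an inhibitor of mTOR kinase that is abundant in MAF myeloma, stood at 346 and 485 CPM in WT and 163 and 121 CPM in KO (log2 fold change -1.55, SE 0.23, adjusted p = 0.0131). RND3, a small GTPase that acts on the actin cytoskeleton, stood at 27.2 and 40.1 CPM in WT and 8.95 and 8.85 CPM in KO (log2 fold change -1.92, SE 0.22, adjusted p = 0.0067). Both were lower without overlap. The third was SMARCA1, at 0.919 and 2.11 CPM in WT and 0.241 and 0.0853 CPM in KO, whose call was lost without KO replicate 2 (adjusted p = 0.0862).

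Differences along the chromosomes were largest in 2 places. The 12670 tested protein-coding genes with a position were divided into 497 windows of about 25 neighbours, and the median log2 fold change of 454 windows lay within 0.2 of 0. All 5 windows with a median under -0.8 were on the short arm of the X chromosome, the arm that carries HDAC6, and all 17 windows with a median from -0.8 to -0.3 were on chromosome 1. A single window exceeded 0.3. It lay on chromosome 5, between 141350102 and 145858521, with a median of 0.32. Smaller runs of neighbouring windows with the same sign lay within these limits, so the rest of the genome was not flat. Examples are windows on chromosome 9 from 26840685 to 37879400 (medians of -0.20 to -0.28). Others on chromosome 5, from 150894392 to 181254417, had medians of 0.14 to 0.19.

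From the end of the X short arm to HDAC6, the 120 tested protein-coding genes had a median log2 fold change of -0.97, which is 50.9% of the WT level. Of these, 115 were negative, and 45 (37.5%) were called lower and 0 higher, against 6.03% and 2.76% of all genes tested. A share of 92.5% lay below both WT libraries without overlap, against 25.3% of all genes tested. Beyond HDAC6 toward the centromere and along the long arm, 298 genes had a median of 0.01, with 15 called lower and 15 higher. Each of the 4 pairings of a KO with a WT library gave a median between -0.85 and -0.98 for the stretch, and leaving out each library in turn gave -0.94 to -1.0. The lowered stretch ran a short way past HDAC6 at a smaller size. The next 18 tested genes, with starts from 48893447 to 49269843, had a median of -0.40 and 0 were called. This set stops before the first gene that was not negative, so the sign of its members was fixed by that choice. Of its members, 12 lay below both WT libraries without overlap, against 25.3% of all genes tested. The window that holds HDAC6 ran from 47635521 to 49113389 with a median of -0.90. Within it the 12 genes past HDAC6, a set not bounded by sign, were all negative, with a median of -0.41. The window after it, from 49162564 to 55143102, had a median of -0.12.

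**Figure D4:**
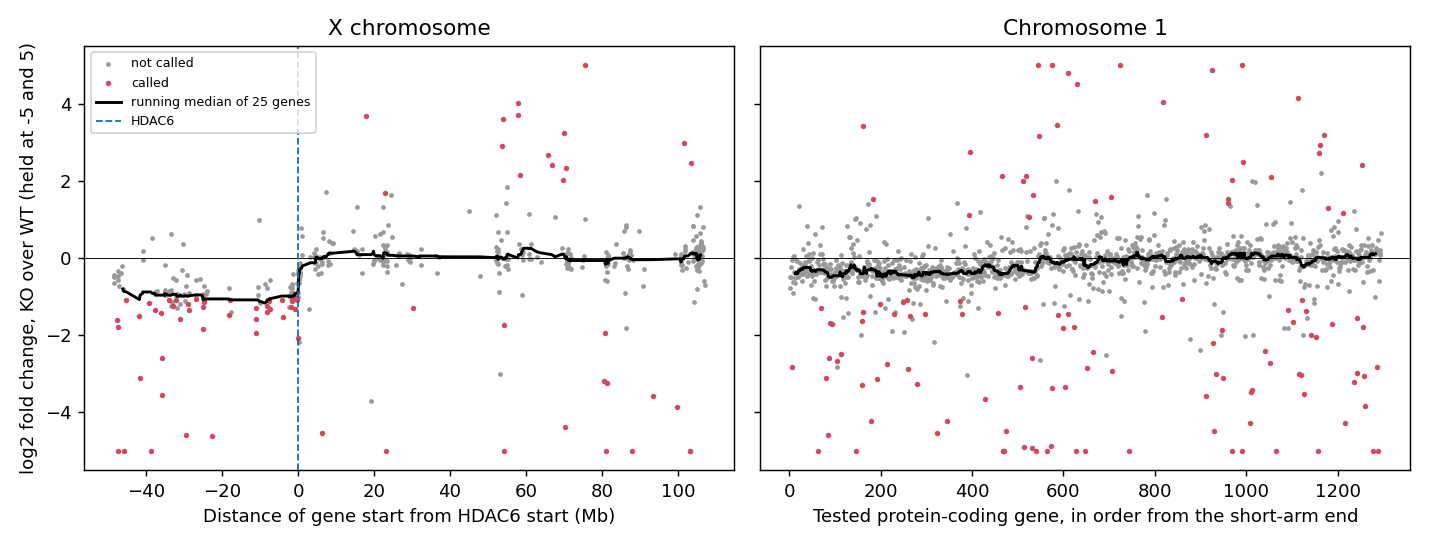
Log2 fold change of each tested protein-coding gene (vertical axis, held at -5 and 5), against distance from HDAC6 on the X chromosome in megabases (left) and against gene order on chromosome 1 (right). The running median of 25 genes lies near -0.97 up to HDAC6 and falls away toward 0 past it, and lies between -0.17 and -0.51 by window over the first 545 genes of chromosome 1.

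Among the genes of the X stretch, STS, steroid sulfatase, stood at 154 and 129.7 CPM in WT and 17.2 and 15.9 CPM in KO (log2 fold change -3.10, SE 0.15, adjusted p = 0.000891), and XK, a membrane transport protein of blood cells, at 37.4 and 33.5 CPM in WT and 8.82 and 9.5 CPM in KO (log2 fold change -1.95, SE 0.15, adjusted p = 0.00252). PRPS2, which makes the precursor of nucleotides, stood at 89.4 and 78.9 CPM in WT and 29.1 and 33.9 CPM in KO (log2 fold change -1.42, SE 0.15, adjusted p = 0.00496), and the kinase RPS6KA3 at 102 and 105 CPM in WT and 40.8 and 40.1 CPM in KO (log2 fold change -1.35, SE 0.12, adjusted p = 0.00324). These levels did not overlap between groups. The deubiquitinase USP11 (44.1 and 41.3 CPM in WT and 19.4 and 19.8 CPM in KO), the mediator subunit MED14 (113 and 107 CPM in WT and 45.3 and 48.6 CPM in KO) and the pseudoautosomal cytokine receptor gene IL3RA (12.3 and 21 CPM in WT and 6.09 and 3.53 CPM in KO) were called lower too. A few genes fell well below the median of the stretch. WWC3, a scaffold of the Hippo pathway, stood at 13.9 and 18.4 CPM in WT and 0.454 and 0.512 CPM in KO (log2 fold change -5.05, SE 0.28, adjusted p = 0.00118), and TMSB4X, thymosin beta 4, which binds actin monomers, at 544 and 872 CPM in WT and 132 and 102 CPM in KO (log2 fold change -2.60, SE 0.27, adjusted p = 0.00511). HDAC6 at -2.08 was among them. Genes named elsewhere for other reasons, TLR7, CYBB, PRDX4, EBP and CSF2RA, lie in this stretch too.

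On chromosome 1 the shift was smaller and longer. From the short-arm end to 67407810, a boundary set after the values were seen, 545 genes had a median of -0.36, or 78.2% of the WT level, and 460 of them were negative. All 21 windows of the stretch were negative, from -0.17 to -0.51. Genes called lower there numbered 41 (7.52%), against 6.29% on the other autosomes, while 61.1% of the genes lay below both WT libraries, against 25.2% on the other autosomes and 28% on the rest of chromosome 1. The rest of chromosome 1 (750 genes) and the other autosomes (10957 genes) had medians of 0.00. The median was -0.30 to -0.40 with each library left out. Among the genes there were HDAC1, a nuclear deacetylase (129 and 116 CPM in WT and 78.9 and 83.3 CPM in KO, log2 fold change -0.59, SE 0.12, adjusted p = 0.0348), and AGRN, agrin (195 and 195 CPM in WT and 108 and 99.8 CPM in KO, log2 fold change -0.91, SE 0.12, adjusted p = 0.00900), each past the adjusted p but under 2-fold. DNA copy number was not measured in these data, and its part in either stretch was not tested.

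A pair of neighbours within the same stretch of chromosome 1 was nearly absent from KO. FAF1, a ubiquitin-binding partner of the segregase VCP (50437028 to 50960263), stood at 6.06 and 10.8 CPM in WT and 0 and 0.455 CPM in KO, and CDKN2C, the INK4 inhibitor of CDK4 and CDK6 that is often deleted in myeloma (50960745 to 50974633), at 3.18 and 6.7 CPM in WT and 0 and 0.228 CPM in KO. The next tested genes, RNF11 (52.3 and 59.1 CPM in WT and 39.2 and 43.3 CPM in KO) and EPS15 (55.7 and 74.3 CPM in WT and 42.5 and 36.9 CPM in KO), kept most of their level. Both genes were covered: the RY share would account for 99.7% of the WT level of FAF1 and 146% of that of CDKN2C. Their calls (-5.22 and -5.43 on the log2 scale) therefore cannot be told apart from loss of RY-type RNA, and KO replicate 2 held the only KO reads of both.

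Several markers of other blood cells were among the covered genes. Of the 9 tested myeloid and granulocyte precursor markers 5 were lower in KO, against 6.03% of all genes tested, and all 5 were covered. Over the 21 listed markers the summed level was 169 and 209.8 CPM in WT, 88.1 and 83.4 CPM in KO and 1481 to 1655 CPM in the libraries labelled RY. Most of the KO sum, and much of the WT sum, came from CD33 and SPI1, which were neither covered nor called. CD33 stood at 66.7 and 62.6 CPM in WT and 55.0 and 49.3 CPM in KO. SPI1 stood at 47.1 and 47.2 CPM in WT and 30.7 and 28.0 CPM in KO. CEBPA, a myeloid transcription factor, stood at 4.3 and 8.29 CPM in WT and 0.347 and 0.455 CPM in KO, with an RY share of 75.1% of its WT level, and the phagocyte gene AIF1 at 5.49 and 8.79 CPM in WT and 0.428 and 0.398 CPM in KO, with 119%. MPO, myeloperoxidase of granulocyte precursors, stood at 39.3 and 73 CPM in WT and 0.0802 and 3.33 CPM in KO, so KO replicate 2 was not free of it, and its log2 fold change was -5.06 in all and -9.39 without that library, from 3 KO reads. S100A8 had 0 reads in all 7 libraries. Among 9 tested progenitor markers, LMO2, SPN and HOXA9 were lower and covered, and KIT was lower and not covered. Of 8 T and NK markers 3 were lower. CD4 was covered and BCL11B was not (0.866 and 0.974 CPM in WT and 0.0267 and 0 CPM in KO, adjusted p = 0.0108, with 1 KO read), while TRBC2, a T cell receptor constant gene (4.75 and 5.86 CPM in WT and 0.936 and 0.967 CPM in KO), was lower and had no reads in RY. CD3D had 0 reads in WT and KO. The erythroid markers had 0 calls by edgeR or DESeq2 in 5 tested, and 1 at an unadjusted p under 0.05.

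Several genes of the TGF-beta superfamily were lower. This family signals through paired kinase receptors to SMAD proteins, and in plasma cells BMP and activin ligands restrain growth. Of 29 tested genes 8 were lower (27.6%) and 1 higher (3.45%), against 6.03% and 2.76% of all genes tested. The median log2 fold change of the list was only -0.07, and -0.05 over members not covered. Of the 8, INHBA, BMPR1A and ENG were covered. The call of BMPR1A was lost without KO replicate 1 (adjusted p = 0.2) or KO replicate 2 (adjusted p = 0.298). BMP6, a ligand, stood at 55.5 and 56.2 CPM in WT and 11.8 and 16.1 CPM in KO (log2 fold change -2.0, SE 0.18, adjusted p = 0.00377). Of the type II receptors, BMPR2 stood at 59.5 and 60.6 CPM in WT and 30.0 and 27 CPM in KO (log2 fold change -1.08, SE 0.13, adjusted p = 0.00724) and TGFBR2 at 36.3 and 52.8 CPM in WT and 19.3 and 17.2 CPM in KO (log2 fold change -1.29, SE 0.21, adjusted p = 0.0174). No library of KO reached either WT library for these 3 genes. The coreceptor TGFBR3 (7.74 and 8 CPM in WT and 2.46 and 3.3 CPM in KO) and the target gene ID3 (9.92 and 7.76 CPM in WT and 4.33 and 3.41 CPM in KO) were called with all libraries, but the call of TGFBR3 was lost without KO replicate 1 (adjusted p = 0.0773) and that of ID3 without KO replicate 2 (adjusted p = 0.191). ACVR1C, the activin receptor ALK7, was the higher member, at 0.184 and 0.166 CPM in WT and 7.24 and 7.91 CPM in KO (log2 fold change 5.41, SE 0.32, adjusted p = 0.00146).

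WNT pathway genes were called in both directions. Of 25, 3 were higher and 3 lower (12% each, against 2.76% and 6.03% of all genes tested). ROR1, a receptor for WNT5A, stood at 27.9 and 35.9 CPM in WT and 6.23 and 4.32 CPM in KO (log2 fold change -2.59, SE 0.24, adjusted p = 0.00385), and LGR4, the R-spondin receptor, at 0.236 and 0.499 CPM in WT and 17 and 14.8 CPM in KO (log2 fold change 5.40, SE 0.35, adjusted p = 0.00179, or 6.04 without WT replicate 2). The ligands WNT5A and WNT10A were higher with all libraries. Neither stayed called without KO replicate 1 (adjusted p = 0.164 and 0.14) or KO replicate 2 (adjusted p = 0.239 and 0.131), and WNT10A missed 2-fold without WT replicate 1 (0.96).

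Of 23 TNF superfamily genes 2 were higher (8.70%) and 4 lower (17.4%), against 2.76% and 6.03% of all genes tested. LTB, lymphotoxin beta, stood at 1.29 and 2.59 CPM in WT and 12.5 and 10.5 CPM in KO (log2 fold change 2.56, SE 0.36, adjusted p = 0.0116, or 3.15 without WT replicate 2), and its receptor LTBR at 4.44 and 5.86 CPM in WT and 0.107 and 0.171 CPM in KO, the latter covered at 90.1%. TNFSF9, the ligand of 4-1BB, stood at 1.81 and 2.49 CPM in WT and 0.321 and 0.284 CPM in KO (log2 fold change -2.82, SE 0.40, adjusted p = 0.0119). Chemokines, cytokines and their receptors split, with 5 of 31 higher (16.1%) and 6 lower (19.4%). Of the lower members IL18, IL7R and CSF2RA were covered. The chemokine receptors CXCR3 (3.12 and 2.23 CPM in WT and 9.81 and 7.31 CPM in KO, log2 fold change 1.68, SE 0.29, adjusted p = 0.0196) and CCR10 (0.472 and 0.784 CPM in WT and 3.26 and 2.53 CPM in KO, log2 fold change 2.19, SE 0.39, adjusted p = 0.0228), the latter typical of plasma cells of mucosa and skin, were higher. CXCL8, the neutrophil chemokine, was lower at 1.86 and 2.18 CPM in WT and 0.16 and 0.114 CPM in KO (log2 fold change -3.85, SE 0.44, adjusted p = 0.0067). These 6 genes were all at low levels, none above the 12.5 CPM of LTB in KO replicate 1. NF-kappaB genes had 1 lower member, CD83, in 27.

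Changes in CPM, a measure not corrected for transcript length, were ranked among called genes without overlap between groups and without a clone-based symbol. The 10 largest falls among these were those of FN1, JCHAIN, TMSB4X, MX1, SPP1, CYBB, DEPTOR, OAS2, PRDX4 and IFI6. Some genes that were not called, such as B2M, fell by more CPM than some of them. Of the 10, 3 were interferon-stimulated genes and 3 lay on the X stretch. FN1, fibronectin, stood at 3439.8 and 3678 CPM in WT and 402 and 838 CPM in KO (log2 fold change -2.52, SE 0.36, adjusted p = 0.0117), with KO replicate 2 above KO replicate 1, and the log2 fold change was -3.15 without that library. SPP1, the matrix cytokine osteopontin, stood at 494 and 590.5 CPM in WT and 200.4 and 196 CPM in KO (log2 fold change -1.45, SE 0.14, adjusted p = 0.00443). CYBB, the catalytic subunit of the NADPH oxidase, stood at 378 and 585 CPM in WT and 191 and 131 CPM in KO (log2 fold change -1.58, SE 0.28, adjusted p = 0.0213), and PRDX4, the peroxiredoxin of the endoplasmic reticulum, at 374 and 414 CPM in WT and 165 and 159 CPM in KO (log2 fold change -1.28, SE 0.13, adjusted p = 0.00443). PRDX4 was the 1 call among 22 genes of the peroxiredoxin and thioredoxin system (4.55% lower, against 6.03% of all genes tested).

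Among called genes ranked in the same way, the largest rises in CPM included those of PXDN, FARP1, PLS3, ACTL8, RHPN1, AMOTL1, ATXN1, CACNA1D and TMEM132E. PXDN, a peroxidase that crosslinks collagen IV, stood at 42.2 and 49.8 CPM in WT and 287 and 217 CPM in KO (log2 fold change 2.45, SE 0.19, adjusted p = 0.00252). The transcriptional repressor ATXN1 stood at 21.9 and 27.1 CPM in WT and 106 and 95.2 CPM in KO (log2 fold change 2.04, SE 0.16, adjusted p = 0.00254). ACTL8, an actin-like gene of testis and cancer on the short arm of chromosome 1, stood at 17.3 and 10.0 CPM in WT and 131 and 160.3 CPM in KO (log2 fold change 3.42, SE 0.29, adjusted p = 0.0031). AMOTL1, an angiomotin of cell junctions that restrains YAP, stood at 4.44 and 5.56 CPM in WT and 91 and 99.6 CPM in KO (log2 fold change 4.25, SE 0.17, adjusted p = 0.000891). The RY share would account for 65.7% of its WT level. The calls of RHPN1 (1.0) and CACNA1D (1.10) lay close to the 2-fold minimum, with 0.88 for RHPN1 without KO replicate 1, 0.99 without WT replicate 2, and 0.98 for CACNA1D without KO replicate 2.

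Actin-binding and motility genes were called in both directions. Of 38, 6 were lower (15.8%) and 3 higher (7.89%), against 6.03% and 2.76% of all genes tested. Of the 6, ACTN1 and CAPG were covered. CNN3, a calponin, stood at 8.37 and 6.72 CPM in WT and 0.0267 and 0.0284 CPM in KO, a 272-fold fall with a counting interval of 75 to 2254 (adjusted p = 0.00118). KALRN, an exchange factor for small GTPases, stood at 17.8 and 17.5 CPM in WT with 0 reads in KO, which makes it at least 426-fold lower against a floor of 3 reads over the group. FARP1, an exchange factor of the same class, stood at 1.23 and 1.78 CPM in WT and 161 and 141 CPM in KO (log2 fold change 6.64, SE 0.23, adjusted p = 0.000627), and PLS3, the actin bundler plastin 3, at 29.1 and 40.2 CPM in WT and 203 and 165 CPM in KO (log2 fold change 2.41, SE 0.21, adjusted p = 0.00317). CTTN, cortactin, which HDAC6 deacetylates, stood at 9.45 and 6.6 CPM in WT and 31.5 and 27.8 CPM in KO (log2 fold change 1.89, SE 0.21, adjusted p = 0.00653). These 3 rose in both KO libraries without overlap. Cadherins, desmosome genes and cell adhesion molecules had 2 of 24 lower (8.33%) and 1 higher (4.17%), near the 6.03% and 2.76% of all genes tested. Their log2 fold changes ran from -12.4 to 1.36. Of adhesion genes, NCAM1, the surface antigen CD56, stood at 253 and 261 CPM in WT and 49.6 and 39.1 CPM in KO (log2 fold change -2.54, SE 0.16, adjusted p = 0.00165). ALCAM, the surface antigen CD166, stood at 4.86 and 7.31 CPM in WT and 17 and 14.4 CPM in KO (log2 fold change 1.36, SE 0.25, adjusted p = 0.024). Both called integrin genes of 13, ITGAM and ITGB2, were lower (15.4%, against 6.03% of all genes tested) and covered.

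Of collagens, laminins and fibronectin, 5 of 16 were lower (31.25%) and 2 higher (12.5%), against 6.03% and 2.76% of all genes tested. COL9A2 stood at 11.7 and 20.3 CPM in WT and 6.2 and 5.52 CPM in KO (log2 fold change -1.45, SE 0.30, adjusted p = 0.0335), and LAMA3, at 0.84 and 1.38 CPM in WT and 0.0267 and 0.0284 CPM in KO, was 40.7-fold lower with a counting interval of 10.9 to 341 (adjusted p = 0.00902). SPARC was lower and covered. The list of aldehyde dehydrogenases and retinoid genes had 3 of 17 higher (17.6%, against 2.76% of all genes tested) and 0 lower. ALDH5A1, which degrades GABA, stood at 7.14 and 9.85 CPM in WT and 37.4 and 39.9 CPM in KO (log2 fold change 2.18, SE 0.20, adjusted p = 0.00347), and ALDH1A1 at 0.0262 and 0.0475 CPM in WT and 12 and 8.39 CPM in KO (adjusted p = 0.00128). The feedback genes of RAS and ERK signalling had 4 of 22 lower (18.2%, against 6.03% of all genes tested) and 0 higher, with SPRY2 covered. JUN, at 28.8 and 18.7 CPM in WT and 9.86 and 9.76 CPM in KO, missed 2-fold without WT replicate 1 (-0.93). In the MYC network 2 of 20 genes were lower (10%, against 6.03% of all genes tested) and 0 higher. MYCN was lower at 18.7 and 19 CPM in WT and 4.2 and 3.75 CPM in KO (log2 fold change -2.25, SE 0.17, adjusted p = 0.00252). MYCL was lower at 8.37 and 10.5 CPM in WT and 4.41 and 4.38 CPM in KO (log2 fold change -1.10, SE 0.22, adjusted p = 0.0306). MYC itself, at 822 and 1046 CPM in WT and 1090.3 and 957 CPM in KO, did not pass (adjusted p = 0.778). The cancer-testis gene MAGEC2 was lower at 4.93 and 5.25 CPM in WT and 0.508 and 0.341 CPM in KO (log2 fold change -3.57, SE 0.34, adjusted p = 0.00404). MAGEA10 was higher at 0.866 and 0.665 CPM in WT and 4.3 and 4.15 CPM in KO (log2 fold change 2.46, SE 0.31, adjusted p = 0.00834). They were 2 of the 4 calls in 12 members, against 8.79% of all genes tested.

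Genes close to HDAC6 in function were called at a share near that of all genes. Of 30 substrates and partners 1 was higher, CTTN (3.33%, against 2.76%), and 2 lower, FAF1 and NLRP3 (6.67%, against 6.03%). The latter were both covered, and NLRP3 was not called without KO replicate 1 (adjusted p = 0.0681) or KO replicate 2 (adjusted p = 0.151). The 17 other histone deacetylases and sirtuins had 0 calls by edgeR or DESeq2, 2 at an unadjusted p under 0.05, a median log2 fold change of 0.10 and 1 member, HDAC1, past the adjusted p. Among 25 tubulins and tubulin-modifying enzymes 2 were lower. TUBB4A, a beta-tubulin of neurons, stood at 29.7 and 21.7 CPM in WT and 6.47 and 6.49 CPM in KO (log2 fold change -1.99, SE 0.20, adjusted p = 0.00496), and the detyrosinase VASH1 at 4.59 and 5.58 CPM in WT and 0.107 and 0.228 CPM in KO, covered at 99.3% and with a log2 fold change of -4.91, or -5.53 without KO replicate 2. Of 25 autophagy receptors and aggresome factors WDFY3, the adaptor ALFY, was higher at 23.7 and 31.8 CPM in WT and 64 and 51.6 CPM in KO, and missed 2-fold without WT replicate 1 (0.86) or KO replicate 1 (0.90). SQSTM1, the receptor p62, stood at 437 and 339.8 CPM in WT and 389 and 483 CPM in KO and did not pass (adjusted p = 0.728). The 24 cytosolic chaperones had 0 calls by edgeR or DESeq2, 0 at an unadjusted p under 0.05 and a median of -0.04.

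Several housekeeping and stress lists had no call, while 8.79% of all genes tested were called. By edgeR and by DESeq2 there were 0 among 30 genes of the unfolded protein response (median -0.16), 31 proteasome subunits (-0.11), 35 genes of replication (0.11), 44 cytosolic ribosomal proteins (0.08), 37 nuclear genes of oxidative phosphorylation (0.11) and 16 genes of the BCL2 family (-0.13). At an unadjusted p under 0.05 the counts in these lists were 5, 1, 2, 0, 4 and 2. Among 38 genes of mitosis, UBE2C alone was called, at 4.93 and 4.7 CPM in WT and 0.134 and 0.171 CPM in KO, and the RY share came to 47.8% of its WT level. EBP, an enzyme of cholesterol synthesis on the X stretch, was the 1 call in 28 genes of that pathway (85.7 and 71.5 CPM in WT and 33.7 and 40.8 CPM in KO), and missed 2-fold without WT replicate 1 (-0.94) or KO replicate 1 (-0.94). EGLN3, an oxygen-sensing prolyl hydroxylase, was 1 of 2 calls in 31 hypoxia and glycolysis genes (16.5 and 11.4 CPM in WT and 5.59 and 5.83 CPM in KO, log2 fold change -1.29, SE 0.23, adjusted p = 0.0236). The other, HK1, was covered at 79%.

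The replicates differed along a shared axis, which the amino acid response marked most clearly. This program is switched on by ATF4 when amino acids run short. All 30 tested members exceeded in WT replicate 2 their level in replicate 1, with a median log2 ratio of 1.02, and all 30 were higher in KO replicate 1 than in KO replicate 2, with a median of 0.62. The sestrin gene SESN2 stood at 22.8 and 121 CPM in WT and 49.4 and 14.2 CPM in KO, the mitochondrial folate enzyme gene ALDH1L2 at 9.71 and 50.5 CPM in WT and 37.8 and 16.4 CPM in KO and the transaminase gene GPT2 at 51.9 and 177 CPM in WT and 131 and 53.3 CPM in KO. In each, the groups overlapped and the spread within a group was wider than the distance between the groups. By edgeR 0 of the 30 were called, by DESeq2 2 were lower, and 4 had an unadjusted p under 0.05, and the list had a median of -0.26. Without WT replicate 1, 10 were called lower, and without WT replicate 2, 4 were called higher, so the direction followed the library left out.

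Other programs lay along the same axis with the opposite sign. All 31 proteasome subunits were higher in WT replicate 1 and none was higher in KO replicate 1. Of 38 genes of mitosis 37 were higher in WT replicate 1 and 1 in KO replicate 1, and of 35 genes of replication 35 and 2. Of 24 chaperones 22 and 2 were so placed, while of 44 ribosomal protein genes 1 and 42 were. Over genes of at least 20 CPM, the log2 ratio between replicates had an SD of 0.364 in WT (7447 genes) and 0.219 in KO (7410 genes). In WT 114 genes differed over 2-fold, 80 of them higher in replicate 2, and in KO 23 did, 22 of them higher in replicate 1. Log2 CPM correlated across 13170 genes at 0.983 within WT, 0.993 within KO and 0.939 to 0.953 across the groups, where genes are not independent. Culture density, growth phase and batch are not given in the sources used here, and their part in this axis was not tested.

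**Figure D5:**
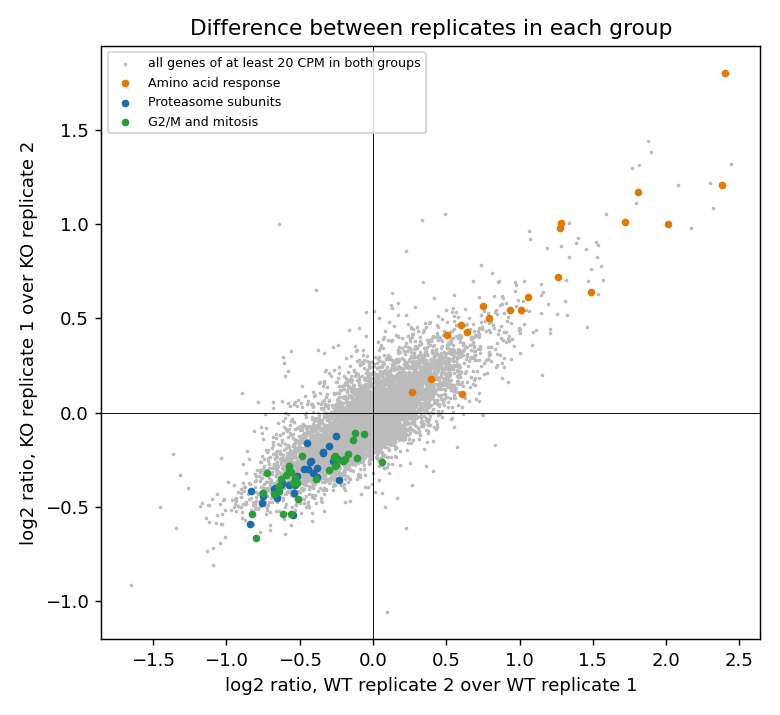
Log2 ratio of WT replicate 2 over replicate 1 (horizontal axis) against KO replicate 1 over replicate 2 (vertical axis) for genes of at least 20 CPM in both groups. Amino acid response genes (orange) lie at the upper right, and proteasome (blue) and mitosis genes (green) at the lower left.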

How the data were processed

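RNA from cells labelled RPMI 8226 was sequenced by the authors, and the deposited table gives a raw read count per Ensembl gene and library. Tools listed in the submitters' processing notes, without roles, are STAR 2.7.4 and HTSeq 0.9.1, with FastQC and edgeR 1.34.1, and the build is GRCh38. The annotation release and strand setting are not given in the sources used here. Overlapping, antisense and near-identical genes are therefore uncertain. The authors' deposited table of KO against WT, with log2 fold changes and p-values, was used for overlap only. Of 60666 identifiers, 60437 matched a symbol and 58361 a position in GENCODE 29 (GRCh38). Genes on chromosome Y were not examined by position.

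The 4 WT and KO libraries were fitted in edgeR 4.0.16 (R 4.3.3, quasi-likelihood test) without covariates, after TMM scaling and filterByExpr at a minimum count of 10. A call needs a Benjamini-Hochberg adjusted p under 0.05 over all genes tested and a 2-fold change. The biological coefficient of variation was 0.183. CPM are not corrected for transcript length. Folds of groups with 0 reads use a floor of 3 reads over the group, and intervals are 95%, for counting error only. A fall in bulk RNA does not tell fewer cells of a type from less RNA per cell. The test was checked on simulated data with known changes. It recovered 84% of genes changed by 1.5 and 100% of those changed by 3 on the log2 scale, with 3 false calls. The simulated counts were drawn independently for each gene and library. The check therefore does not cover differences between replicates that many genes share.

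The comparison, its lists and naming rule were chosen with earlier results of these data known. Named were HDAC6, the 10 largest CPM changes each way and the 6 widest replicate ratios in each group. Also named were up to 4 called members of each of 48 lists, or the 2 most abundant where none was called. CPM changes were ranked among called genes without overlap between groups, a clone-based symbol or a place on chromosome Y. Other named genes were chosen after their values were seen. Some genes that this rule names are not reported here.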

Additional observations from a re-analysis of the deposited data

How the results depend on the processing

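HDAC6 stayed called in every alternative run, with a log2 fold change of -1.82 to -2.39 over the fits that leave out a library. Against 1432 calls (450 higher, 982 lower), leaving out a library gave 1166 to 2140, with 355 to 846 higher (846 without WT replicate 2) and 808 to 1514 lower (1514 without WT replicate 1). Without a filter on low counts there were 2242, 694 higher and 1548 lower. A 4-fold minimum left 270 higher. Leaving out genes covered by the RY share gave 636 lower. Subtracting that share from the WT counts, chosen after seeing the data, gave 612 lower, and AIF1, whose WT counts the subtraction takes to about 0 by construction, then reversed to 6.94, which is no measured rise. ALDH1L2, not called, ran from -0.90 to 1.47 with a library left out, reversing without WT replicate 2. DESeq2 1.42.0 gave 1628 calls, library size alone 1403, RLE 1422 and all 7 libraries in the fit 2001.

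A fit with the replicate number as a block gave 1498 calls. The deviations of same-numbered libraries correlated at -0.63 across genes. Each group has a single replicate difference, so this cannot show whether the numbers pair the samples. The crossed pairing, added after seeing the data, gave 2102 calls, 766 higher and 1336 lower. Of 197 called genes in the lists, the naming rule or the X stretch, 135 stayed called with each library left out in turn. With the interferon-stimulated effectors 28 to 35 were lower over all alternatives run, and 29 without covered genes.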

Other observations

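Several genes used as markers of other tissues were expressed in both WT and KO and almost absent from the libraries labelled RY, so the RY share does not carry them. CD8B, the beta chain of the T cell coreceptor CD8, stood at 398 and 416 CPM in WT and 651 and 561 CPM in KO, while CD8A, the chain it pairs with, stood at 2.13 and 3.47 CPM in WT and 4.25 and 3.19 CPM in KO and CD3D had 0 reads. CD8B did not pass the test (log2 fold change 0.57, SE 0.14, adjusted p = 0.0589 by edgeR). EPCAM, an adhesion molecule of epithelia, stood at 87.7 and 68 CPM in WT and 57.2 and 71.4 CPM in KO (adjusted p = 0.49), and KRT18, a keratin of simple epithelia, at 72.3 and 91.8 CPM in WT and 70.7 and 58.7 CPM in KO (adjusted p = 0.338). CDH1 stood at or under 1.78 CPM in these libraries.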
